A study of Mus musculus with 2 samples.

Results

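Splenic B cells that carried both IgM and IgD on their surface were profiled for the genes that bring new proteins into the endoplasmic reticulum (ER), fold them there and attach their first sugars. The gene list was set by function and by symbol, not by a threshold on any measured value, though earlier results of these data were known. It held 37 genes, of which 36 were measured by 87 probe sets naming that gene alone, out of 12393 genes and 20380 such probe sets on the array. A probe set is a group of short probes designed against a transcript. The remaining gene, Sec61g, the gamma subunit of the translocation channel, shares its probe set with other genes and was given no value. The genes were divided into an unfolded protein response and degradation group of 7 genes, a folding group of 13, a targeting and translocation group of 13 and a glycosylation group of 4.

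The study compared wild-type B cells of the mouse spleen with cells without serum response factor (SRF), which regulates transcription. The samples used here are 2 arrays of 1 group, primary cells of unmodified genotype that had been sorted by flow cytometry, and SRF-deficient cells were not analysed here. They are called array 1 and array 2 below, after their replicate numbers, which follow the accession order and pair nothing. Strain, age and whether the samples came from separate mice are not given in the labels used here, so the spread between them may be technical. With 1 group of 2 samples no p-value was computed, and each difference below is a description of these 2 samples.

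Secretory and membrane proteins are recognised by the signal recognition particle as they are made, are handed to the Sec61 channel, and have their signal peptide cut off and N-linked sugars attached while they enter the ER. Chaperones such as BiP, lectins such as calreticulin and disulfide isomerases then fold them, and proteins that fail are sent back to the cytosol for degradation. When unfolded proteins build up, the sensors IRE1, PERK and ATF6 switch on the unfolded protein response, which raises the supply of these factors. Plasma cells, which secrete antibody in bulk, are known for a greatly enlarged ER that depends on XBP1, whereas resting B cells make their antigen receptor at a lower rate.

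The deposited values are MAS5 signals on a linear scale in arbitrary units. An expression floor was set on each array at the 90th percentile of the signals of 54 genes specific to other organs, measured by 80 probe sets, which gave a signal of 182 on array 1 and 88.7 on array 2. A gene was called detected when any of its probe sets exceeded the floors of both arrays, and its brightest probe set, by mean log2 signal, stands for it. Each difference is the log2 signal on array 2 less that on array 1. The pooled SD between the samples was 0.66 on the log2 scale, or 1.58-fold, over the 4655 probe sets that exceeded both floors. Probes differ in affinity, so signals of different genes were not ranked against each other.

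Both arrays carried the B cell identity of the label, with 10 of 11 B cell markers detected. Ighm, the IgM heavy chain, had signals of 9959 and 15633 on arrays 1 and 2, Cd22 had 4313 and 5302 and Ms4a1, which encodes CD20, 3394 and 6347. Cd79a, which encodes Ig-alpha, had 2931 and 192, or 15.3-fold higher on array 1, and was detected. Pax5, a B lineage transcription factor, was the marker not detected, at 21.5 and 15.6. Of 48 markers of cells other than B cells, 5 were detected, namely Csf1r, Lyz2, Ngp, S100a9 and Cxcl12, with no signal of theirs over 327. Taken singly, the floor of array 1 was passed by 7 of the 48 and that of array 2 by 12. Of all 12393 genes, 4412 and 6031 passed them. S100a8, a neutrophil marker, was above the floor of array 2 only, with 164.4 and 449.9. T cell, NK cell, dendritic, erythroid and platelet lists had 0 detected of 8, 5, 5, 4 and 4 genes, and the genes of highest mean signal in each, Il7r, Prf1, Itgax, Gata1 and Itga2b, had signals from 40.6 to 290.8. Plasma cell markers were detected in 2 of 8 cases, Irf4 at 1270.4 and 348 and Iglv1 at 388 and 210.1, while the defining genes Sdc1 and Prdm1 were below the floor on at least 1 array, with 116 and 52.4 for Sdc1 and 222 and 42.2 for Prdm1. Jchain, which joins secreted IgM, was above the floor of array 2 only, with 94.7 and 453.5. Bcl6 was the 1 of 3 germinal centre markers detected, at 323 and 533. The arrays also differed technically. All 18 probe sets for the bacterial and phage spike-in RNAs were brighter on array 1, by a median of 5.17-fold. The ratio of 3′ to 5′ signal of the Actb control was 3.57 on array 1 and 8.15 on array 2. For the Gapdh control the ratio was 1.31 and 61.1, with 5′ signals of 656 and 13.5, so the 5′ end of Gapdh was below the floor on array 2. The part of these in the differences below was not tested.

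Messages of the ER entry and folding machinery were broadly detected in the wild-type cells. Of the 36 measured genes, 32 were detected, or 88.9%, against 28.7% of all 12393 genes. By group the counts were 5 of 7 for the unfolded protein response and degradation, 12 of 13 for folding, 12 of 12 for targeting and translocation and 3 of 4 for glycosylation. A gene with several probe sets has more ways to be called detected, so counts of probe sets are given too. Of the 87 probe sets of the list 54 passed both floors, against 4655 of 20380 in all. In RNA pooled from many cells, fewer expressing cells and less RNA per cell cannot be told apart. The other measured genes passed the floor of 1 array only. Atf6, Sel1l and Sdf2l1 passed it on array 2, whose floor is lower, and Rpn2 on array 1.

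**Figure D1:**
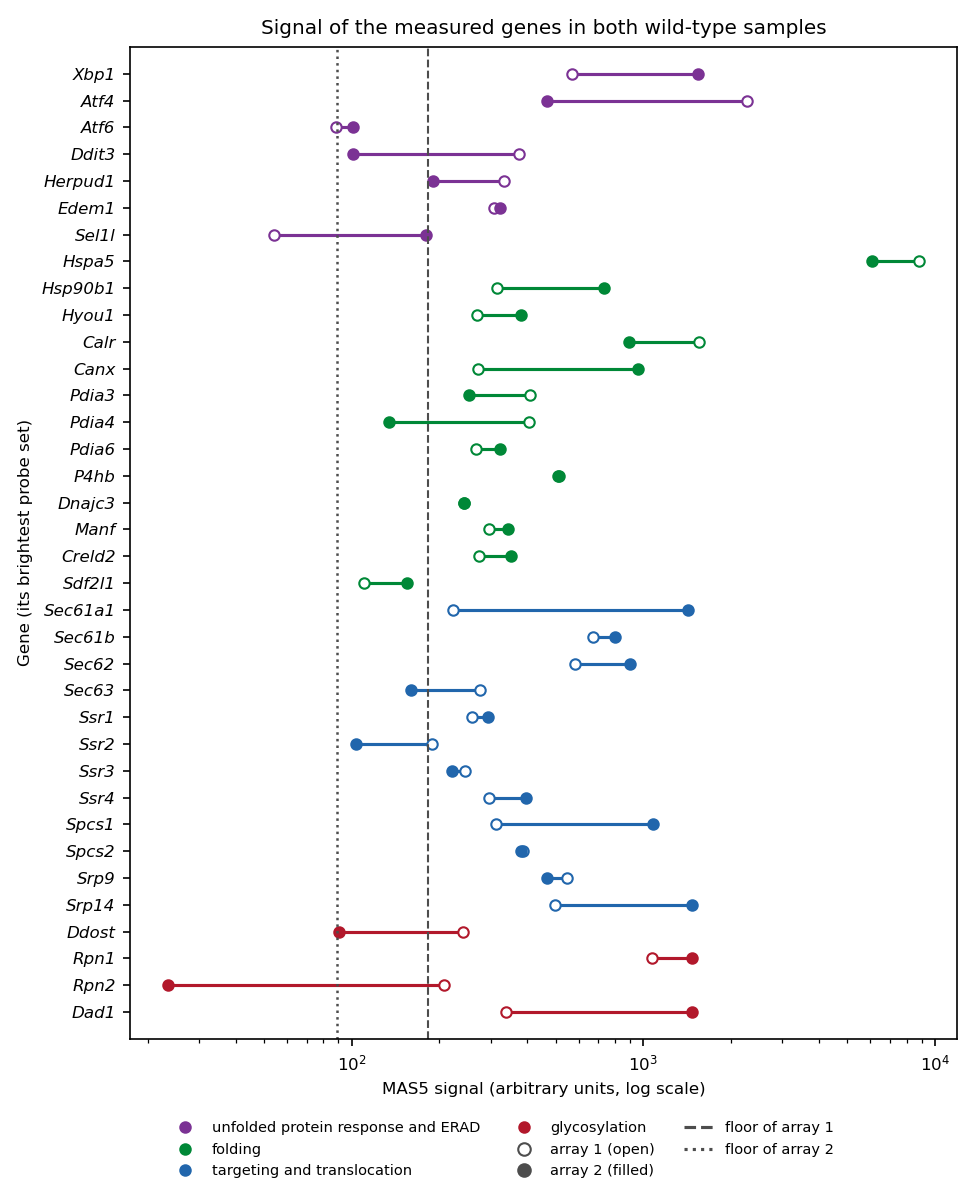
MAS5 signal (log axis) of the 36 measured genes on array 1 (open circles) and array 2 (filled circles), each by its brightest probe set and coloured by functional group, with the floor of each array as a dashed (182, array 1) or dotted (88.7, array 2) line. Most pairs of circles lie to the right of both lines. Rpn2, above the floor of array 1 only, has the longest connecting line, followed by Sec61a1, Atf4 and Dad1. P4hb, Dnajc3 and Spcs2 have circles that coincide.

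Most folding genes lay within 2-fold between the arrays, 9 of the 12 detected, as did 2534 of all 3553 detected genes. Hspa5, which encodes the Hsp70 chaperone BiP, gave 8848 on array 1 and 6083 on array 2, with a mean signal of 7466 ± 1955 (SD, n = 2). Its second probe set gave 739.8 and 461, so both were somewhat higher on array 1, by 1.45-fold and by a log2 difference of -0.68. Calr, the luminal lectin chaperone calreticulin, had 1556 and 894, and its other probe sets gave 1381 and 639, and 1015 and 664. All 3 were thus higher on array 1, with log2 differences from -1.11 to -0.61.

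The disulfide isomerases did not move as a block. P4hb, the classical isomerase PDI, had 513 on array 1 and 511 on array 2, the closest pair of the folding group. Pdia6, the isomerase P5, had 266 and 323 by the 1 of its 2 probe sets above both floors. Pdia3, the isomerase ERp57 that works with the lectin chaperones, had 408 and 253. Pdia4, the isomerase ERp72, had 405 and 135, which was 3.01-fold higher on array 1 and the only brightest probe set of the group over 2-fold toward array 1. Its second probe set, below the floor on both arrays, gave 109 and 36.3.

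Of the other folding genes, 2 were over 2-fold higher on array 2 by their brightest probe set. Canx, the membrane-bound lectin chaperone calnexin, had 271 on array 1 and 962 on array 2, or 3.55-fold. Its other probe sets, each above the floor on array 2 only, gave 181 and 103, and 93.9 and 110.0, so the difference rests on 1 of 3. Hsp90b1, the ER member of the Hsp90 family, had 315 and 736, or 2.33-fold, while its second probe set gave 282 and 214, the opposite order.

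The cofactors of BiP and the smaller stress-induced folding genes lay within 2-fold on the arrays by their brightest probe sets. Dnajc3, a J-domain cochaperone of BiP, had 244 and 242 on arrays 1 and 2 by the 1 of its 5 probe sets above the floor on both. Hyou1, a nucleotide exchange factor of BiP, had 269 and 381 by the 1 of its 3 probe sets above both floors. Manf, a stress-induced protein of the ER lumen, had 295 and 344, and Creld2, another stress-induced gene, had 274 and 352. By these probe sets all of them lay within 2-fold. With the mean over all probe sets of a gene the log2 difference was -1.10 for Hyou1 and -1.27 for Dnajc3. Manf and Creld2 have 1 probe set each. Sdf2l1, a partner of ER J-domain proteins, had 111 and 155 and was above the floor of array 2 alone. Over the 12 detected folding genes the median log2 difference was 0.11, against 0.0027 for all detected genes. It was -0.65 with the mean over all probe sets of a gene, against -0.11 for all detected genes. With the dimmest probe set above the floor it was -0.0067, against -0.19, so its sign rests on the choice of probe set.

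A promoter feature is shared by many of the folding genes and is shown here because it is the sequence through which ATF6 and XBP1 are known to act. The classical ER stress response element is CCAAT and CCACG separated by 9 bases. It was searched for on both strands of the RefSeq promoter windows of GRCm38.p6, which run from 250 bases before to 50 bases after each gene's start. Of the 37 genes 32 had a window in that table. The element was present in 7 of them, all in the folding group, where 11 of 13 genes had a window. Of all 32851 promoter windows 0.119% held it. The windows below are printed 5′ to 3′ on the gene's strand with 20 bases on each side, and capitals mark the 2 conserved blocks, which read as CGTGG and ATTGG where the element lies on the opposite strand.
Hspa5, chr2:34772005-34772063, plus strand: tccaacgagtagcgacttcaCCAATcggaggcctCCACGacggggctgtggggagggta
Hsp90b1, distal, chr10:86705618-86705676, minus strand: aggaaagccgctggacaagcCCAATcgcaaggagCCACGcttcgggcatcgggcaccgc
Hsp90b1, proximal, chr10:86705513-86705571, minus strand: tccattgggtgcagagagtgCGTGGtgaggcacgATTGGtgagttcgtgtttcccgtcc
Calr, chr8:84847055-84847113, minus strand: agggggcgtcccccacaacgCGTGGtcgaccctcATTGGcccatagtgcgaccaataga
Canx, chr11:50325780-50325838, minus strand: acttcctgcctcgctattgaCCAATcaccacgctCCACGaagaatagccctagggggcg
Pdia6, chr12:17266471-17266529, plus strand: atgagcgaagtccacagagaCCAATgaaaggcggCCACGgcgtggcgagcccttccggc
Dnajc3, chr14:118937807-118937865, plus strand: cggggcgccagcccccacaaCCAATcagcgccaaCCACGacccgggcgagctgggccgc
Creld2, chr15:88819500-88819558, plus strand: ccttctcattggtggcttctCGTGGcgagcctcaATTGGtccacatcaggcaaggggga

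The 8 elements of these 7 genes began between 212 and 65 bases before the annotated start, 5 on the gene's strand and 3 on the other. Hsp90b1 was the gene with 2. All 7 genes were detected, 4 of them higher on array 2 and 3 on array 1. Over 2-fold differences were those of Canx and Hsp90b1, both toward array 2, and the median log2 difference of the 7 was 0.28. Over all detected genes 1777 were higher on array 2 and 1775 on array 1, so the split of the 7 is near that of all genes. Of the 3, Dnajc3 differed by a log2 value of only -0.0077.

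A shorter second form of the element, ATTGG and CCACG separated by 1 base, was found in 1 gene of the list, Herpud1, and in 0.0365% of all windows. Herpud1 encodes a membrane protein of ER-associated degradation, and its window is printed in the same way.
Herpud1, chr8:94386357-94386407, plus strand: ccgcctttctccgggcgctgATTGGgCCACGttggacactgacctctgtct
The core of the unfolded protein response element, TGACGTGG, was in no window of the list and in 0.676% of all windows. The amino acid response element core bound by ATF4, TGATG and AA separated by 1 base, was in Herpud1 and in 3.97% of all windows. No match in these genes overlapped another. A match describes the letters of the window only, and binding was not measured.

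**Figure D2:**
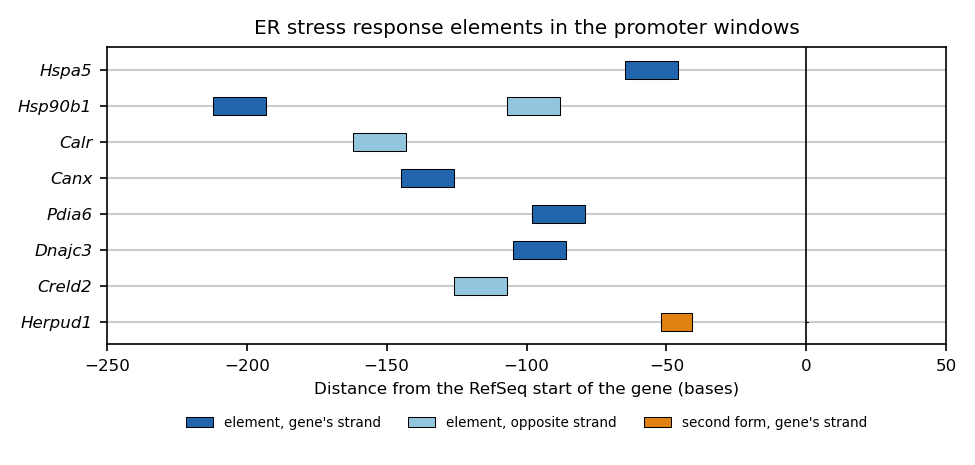
Position of the ER stress response element in the promoter windows of 7 folding genes and of its second form in Herpud1, as distance in bases from the RefSeq start of the gene (vertical line at 0), with the bar colour giving the form and the strand. Every element lies upstream of the start, from Hsp90b1 at 212 bases to Herpud1 at 42 bases.

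Of the unfolded protein response regulators in the list, Atf4 and Ddit3 were over 2-fold higher on array 1 by their brightest probe sets. Xbp1 was over 2-fold higher on array 2, and Atf6 was not detected. Over all detected genes 13.8% were over 2-fold higher on array 1 and 14.9% on array 2. Atf4, the transcription factor translated when PERK is active, had 2260.5 on array 1 and 468 on array 2 by its brightest probe set, or 4.83-fold higher on array 1. A second probe set gave 565 and 892, the opposite order, and its last, 20.7 and 26.0, was below the floor. Ddit3, which encodes CHOP, a target of ATF4, had 374 and 101 by its only probe set, or 3.71-fold higher on array 1. The signal of Ddit3 on array 2 lay near that array's floor of 88.7, so the size of the fold is uncertain.

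Xbp1, whose mRNA is spliced by IRE1 to give an active transcription factor, had 569 on array 1 and 1539.5 on array 2 by its brightest probe set. Of its other probe sets, 1 was also higher on array 2, with 271 and 401, and the others gave 467 and 245, and 177 and 141. The gene thus had probe sets in both orders, and the array does not separate the spliced from the unspliced mRNA. Atf6, the membrane-bound factor cleaved under ER stress, had 88.5 and 101 and was above the floor of array 2 only.

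The degradation genes of the group differed among themselves. Herpud1 had 333 and 190.3 by its brightest probe set, and 349 and 155 by the other, and both were higher on array 1, the second by a log2 difference of -1.17. Edem1, a lectin-like protein that directs misfolded glycoproteins to degradation, had 307 and 324. Sel1l, the adaptor of the HRD1 ubiquitin ligase, had 54.2 and 180.4 by its brightest probe set, above the floor of array 2 only, and its 3 other probe sets were below the floor on both arrays. Over the 5 detected genes of this group the median log2 difference was -0.81. It was 0.076 when each gene was represented by its dimmest probe set above the floor, so the sign of the group rests on the choice of probe set.

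All 12 measured targeting and translocation genes were detected, beside 12 of 13 folding genes. The channel genes came first. Sec61a1, the pore-forming alpha subunit, had 223 on array 1 and 1423 on array 2 by its brightest probe set, which at 6.38-fold was the widest difference of any detected gene of the list. Its other probe sets above both floors gave 253 and 313, and 280 and 123, so the 3 did not share a direction. Sec61b, the beta subunit, had 672 and 802 by its only probe set.

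The partners of the channel lay within 2-fold by their brightest probe sets, as did 2534 of all 3553 detected genes. Sec62, which serves precursors that arrive after synthesis, had 584 and 899 by its brightest probe set and 325 and 418 by another, both within 2-fold and both higher on array 2. Sec63, the J-domain partner that recruits BiP, had 275 and 159 by the 1 of its 4 probe sets above both floors. Another, above the floor of array 2 only, gave 145 and 169, the opposite order. With the mean over all its probe sets the log2 difference of Sec63 was -1.17. By their brightest probe sets the subunits of the translocon-associated protein complex were all within 2-fold. Ssr1 had 258 and 294, Ssr2 had 189 and 103, Ssr3 had 244 and 220.1, and Ssr4 had 297 and 397, on arrays 1 and 2. Ssr2 lay close to both floors. A second probe set of Ssr4 gave 204 and 151, the opposite order. The last probe set of Ssr4, above the floor of array 1 only, gave 212.5 and 39.3. The other probe sets of Ssr1 were below the floor on both arrays.

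Signal peptidase and signal recognition particle genes included the other over 2-fold differences of the group. Spcs1, a signal peptidase subunit, had 313 and 1080.2 by its brightest probe set, or 3.45-fold higher on array 2, and 541 and 459 by another. Spcs2, a second subunit, had 386 and 381 by one probe set and 407 and 336 by the other. Srp14, which with Srp9 forms the Alu domain of the particle, had 498 and 1466 by its brightest probe set, or 2.94-fold higher on array 2. The 3 other probe sets of Srp14 were also higher there, with log2 differences of 0.28, 0.48 and 1.31. Srp9 had 549 and 468, while its other probe set gave 317 and 693.

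The oligosaccharyltransferase genes were divided between the arrays. Rpn1, ribophorin I, had 1071 on array 1 and 1466 on array 2, and the 4 probe sets above both floors were all higher on array 2, with log2 differences from 0.45 to 0.74. All 4 are _x_at probe sets, whose probes can bind other sequences, and with quantile normalization the brightest gave -0.23. Dad1, a small subunit, had 337 and 1474 by its brightest probe set, or 4.37-fold higher on array 2, and 599 and 828 by the other. Ddost, the OST48 subunit, had 241 and 90.3 by its only probe set, or 2.67-fold higher on array 1, with the second value just above the floor of 88.7. Rpn2, ribophorin II, had 208 and 23.4, above the floor on array 1 only.

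In all, 7 of the 32 detected genes were over 2-fold higher on array 2, where 14.9% of all 3553 detected genes were. They were Sec61a1, Dad1, Canx, Spcs1, Srp14, Xbp1 and Hsp90b1. Another 4 were over 2-fold higher on array 1, where 13.8% of all detected genes were, namely Atf4, Ddit3, Pdia4 and Ddost. The other 21 lay within 2-fold. The median log2 difference of the 32 genes was 0.13, against 0.0027 over all detected genes. Scaling moved these counts. Centring each array on its median, which moved the median of all genes to 0.64, gave 11 and 2, against 35.3% and 2.93% of all genes, and quantile normalization gave 4 and 5, against 8.95% and 12.0% of all genes.

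**Figure D3:**
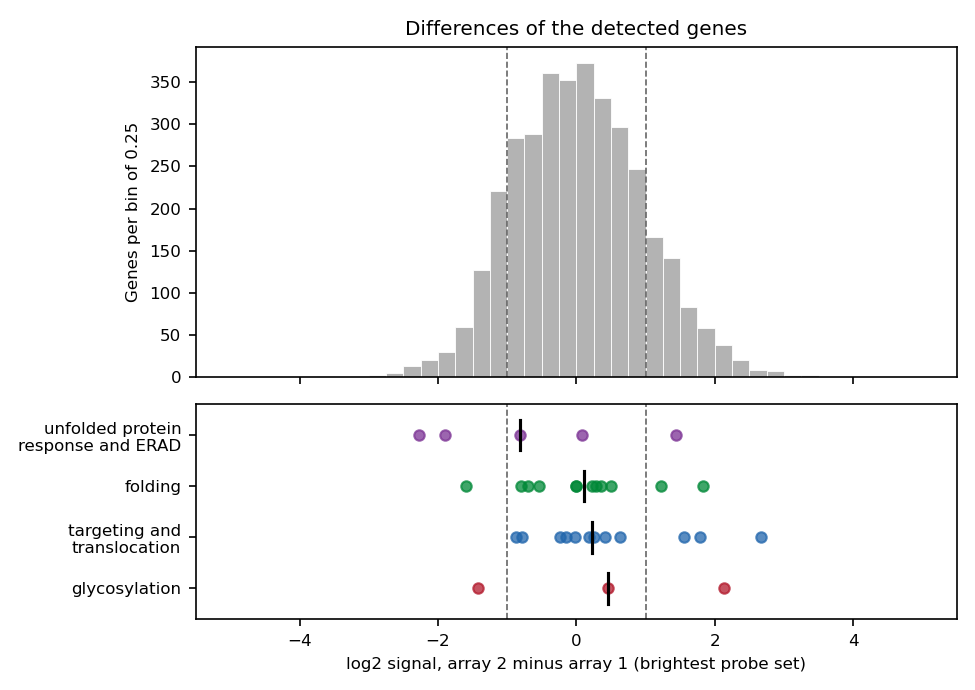
Upper panel, number of detected genes in bins of 0.25 of the log2 difference between the samples (array 2 minus array 1). Lower panel, the 32 genes of the list by functional group with the group median as a black bar, and dashed lines at a 2-fold difference. The genes of the list lie across the range of all genes, with 7 beyond the right line and 4 beyond the left.

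How far a difference held depended on the probe set. Of the 15 genes of the list with several probe sets above both floors, 8 had all of them on 1 side of 0, where 51.0% of 804 such genes in all did. The count was 5 of 15 with quantile normalization and 4 of 11 without _x_at probe sets. The share over all genes was not computed with these settings, so these lower counts cannot be set against it. These 8 were Calr, Dad1, Herpud1, Hspa5, Rpn1, Sec62, Spcs2 and Srp14. The other 7 were Atf4, Hsp90b1, Sec61a1, Spcs1, Srp9, Ssr4 and Xbp1. Within a gene the probe sets spanned a median of 1.28 on the log2 scale, from 0.14 for Hspa5 to 3.86 for Sec61a1, and the median over all such genes was 1.03. Of the 7 genes over 2-fold higher on array 2, only Dad1 and Srp14 had several probe sets above the floor that all shared that order, and Canx had a single probe set above both floors.

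The direction went with the type of probe set. On this platform a name ending in _a_at, _s_at or _x_at marks probes that match several transcripts of a gene, transcripts of several genes or other sequences in part, and a plain _at marks a probe set without that warning. In the list 9 of 32 suffixed probe sets above both floors were over 2-fold higher on array 2 and 1 on array 1. For the 22 plain probe sets it was 0 and 6. Over all genes the counts were 398 and 220 of 1868 suffixed and 244 and 463 of 2787 plain probe sets. The median log2 difference was 0.49 for the suffixed and -0.23 for the plain probe sets of the list, against 0.19 and -0.18 over all genes. In 7 of 7 genes of the list with both types, Atf4, Herpud1, Sec61a1, Sec62, Spcs1, Srp9 and Ssr4, the suffixed probe sets lay further toward array 2 than the plain ones, against 71.8% of 383 such genes in all. Dad1 and Srp14, whose probe sets agreed toward array 2, had suffixed probe sets only. With quantile normalization the brightest probe set of Dad1 gave -0.055. The part of cross-hybridization or of probe position in the difference between the types was not tested.

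**Figure D4:**
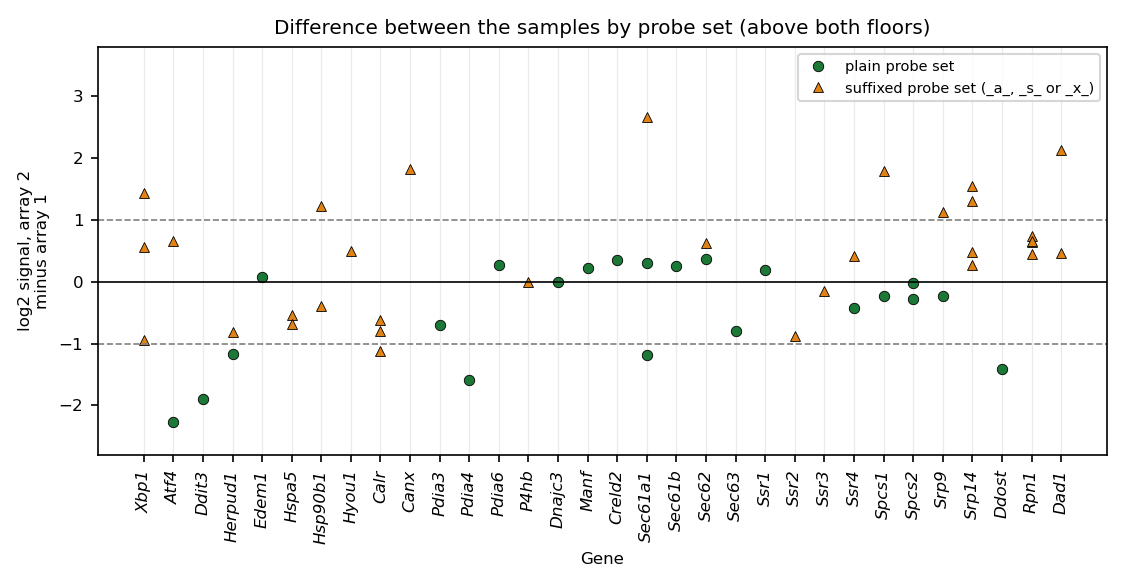
Log2 difference between the samples (array 2 minus array 1) of each of the 54 probe sets of the list above both floors, by gene, with plain probe sets as green circles and suffixed ones as orange triangles, and dashed lines at a 2-fold difference. All 9 points above the upper line are triangles, and 6 of the 7 points below the lower line are circles.

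With plain probe sets alone, a choice made after the values were seen, 21 of 26 measured genes of the list were detected. Of these 0 were over 2-fold higher on array 2 and 5 on array 1, against 9.27% and 15.6% of all genes. Ddit3, Pdia4 and Ddost are among the genes over 2-fold higher on array 1 that rest on a plain probe set, as does Atf4 by its brightest.

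The rest of the secretory pathway was detected in part. Over 7 further lists, 80 of 155 measured genes were detected, or 51.6%, against the same 28.7% of all genes. Of the 80, 17 were over 2-fold higher on array 2 and 8 on array 1, and the median log2 difference was 0.15. The shares over all detected genes, against which the counts of each list stand, were 14.9% and 13.8%.

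The sensors, proteases and cofactors of the unfolded protein response were detected in 6 of 13 cases. Eif2ak3, which encodes PERK, had 621 on array 1 and 467 on array 2, and Nfyc, a subunit of the CCAAT-binding factor NF-Y, had 407 and 310.0. Yy1, a cofactor of ATF6, was 2.31-fold higher on array 2 by its brightest probe set, with 372 and 862, but its probe sets above the floor ranged from -1.22 to 1.21 on the log2 scale. Among genes listed for the integrated stress response, which are not all targets of ATF4 or CHOP, 3 of 15 were detected, against 28.7% of all genes. Ppp1r15a, a stress-induced subunit that directs phosphatase to eIF2alpha, had 1709 and 245, or 6.99-fold higher on array 1. Its constitutive relative Ppp1r15b had 188 and 415, or 2.21-fold higher on array 2. Cebpb, a transcription factor that pairs with CHOP, had 184 and 106. Atf3, a stress-induced factor had 258 and 8.7 and was above the floor of array 1 only. Cebpg, a dimerization partner of ATF4, had 116 and 285.5 and was above the floor of array 2 only. Both were named after their values were seen. The list held genes on either side, and this pair does not show how it divides between the arrays.

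Other degradation genes were detected in 13 of 19 cases. Within 2-fold were 11 of them, such as Derl1, a channel component, with 716 and 1169 and Syvn1, the HRD1 ligase, with 494 and 472. Aup1 was 2.71-fold higher on array 1 and Ubxn4 2.34-fold higher on array 2 by its brightest probe set, while another probe set of Ubxn4 gave a log2 difference of -0.38. Other folding factors were detected in 13 of 26 cases. Ppib, the cyclophilin of the ER, had 1921 and 3671, and Sdf2 had 627 and 602. On array 1, Qsox1, a sulfhydryl oxidase, was 4.01-fold higher, Dnajb9, a cochaperone of BiP induced by XBP1, 2.55-fold and Fkbp2 2.39-fold. On array 2, Tmx1 was 4.84-fold higher and Ero1b, an oxidase that recharges PDI, 2.54-fold. Both directions were therefore seen in this list too.

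Other targeting and translocation factors were detected in 12 of 22 cases, of which 4 lay over 2-fold toward array 2 and 0 toward array 1. The 4 were Sec11a, the catalytic signal peptidase subunit, by 2.64-fold, Srp19 by 2.31-fold, Sec16a, a scaffold of ER exit sites, by 2.11-fold and Tram1 by 2.02-fold. A second probe set of Sec16a gave a log2 difference of -0.32. Emc2 and Srpr, a receptor subunit for the signal recognition particle, lay within 2-fold, with 469 and 558, and 495 and 443. Other N-glycosylation factors were detected in 12 of 26 cases. Krtcap2, an oligosaccharyltransferase subunit, was 6.09-fold higher on array 2, Stt3b and Stt3a, the catalytic subunits of the 2 forms of that enzyme, 2.44-fold and 2.38-fold, and Magt1, another subunit, was 2.57-fold higher on array 1. A second probe set of Stt3b gave a log2 difference of -0.28. Mogs, a glucosidase, had 378 and 742, and Ost4, a small subunit, had 673 and 1144.

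ER to Golgi transport genes were detected in 21 of 34 cases, of which 5 lay over 2-fold toward array 2 and 2 toward array 1. The coat genes Copa, Copb2 and Arcn1 were 3.28-fold, 3.20-fold and 2.91-fold higher on array 2. A second probe set of Arcn1 gave a log2 difference of -0.33, and Copg1, another coat gene, had 226 and 149.8. Tmed9, a cargo receptor, was 4.33-fold higher there by a probe set that was below the floor on array 1, and its probe set above the floor gave a log2 difference of -0.80. Ergic3 and Surf4, membrane proteins that cycle between ER and Golgi, were 2.63-fold and 2.50-fold higher on array 1. Gosr2 had 443 and 515 and Preb, which activates the coat protein Sar1, 528 and 523.

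**Figure D5:**
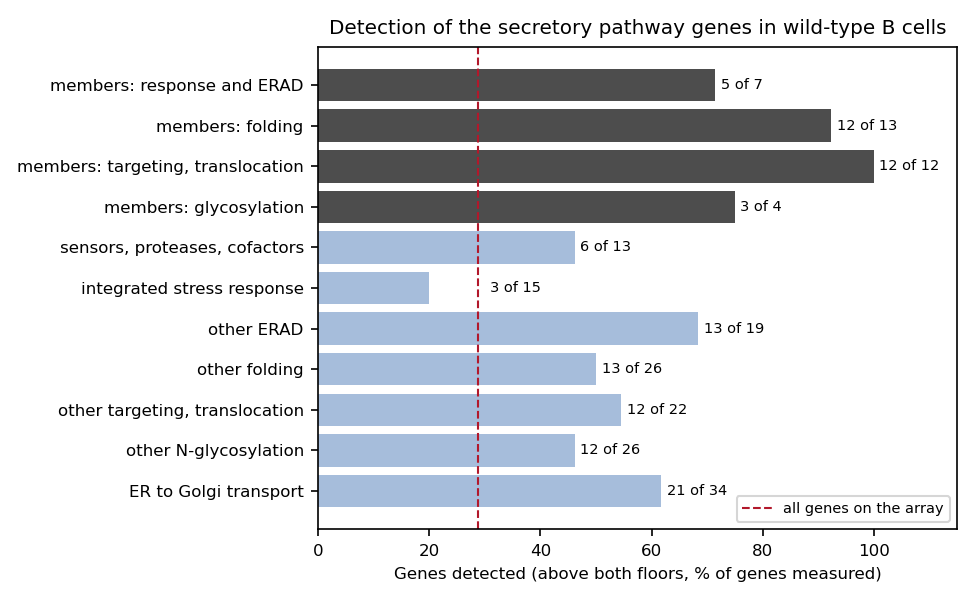
Share of measured genes detected (bars, percent, with counts beside them) for the 4 groups of the list (dark) and for 7 further lists of the secretory pathway (light), with the share of all genes on the array as a dashed line at 28.7%. All bars but that of the integrated stress response, 3 of 15, pass the line.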

How the data were processed

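RNA of sorted spleen B cells was measured on 2 arrays of 1 group, wild type, with 1 array per sample. Per the labels, biotin-labelled cRNA was made from 6 µg of total RNA. The authors deposited linear signal intensities that had been made with MAS5, according to the submitters' processing notes; version, parameters and detection calls are not given in the sources used here. The trimmed mean (2% at each end) was 150.0 and 150.1, so each array had been scaled by 1 factor to a common target. Such a factor multiplies background as well as signal, and the array medians were 103 and 66.6. No counts lie behind intensities, so precision is limited by how few arrays there are.

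Of 22690 probe sets 64 controls were left out; of the other 22626, 20380 named 1 gene, 691 several and 1555 were unnamed here. Of 20351 probe sets matched by Entrez identifier to RefSeq of GRCm38.p6, 0 changed symbol. The 2 probe sets naming a listed gene together with others (Sec61g in 1, Sec61b in the other) were left out. Floor, gene summary and differences are as defined in the text; values were log2-transformed as deposited, with no pseudocount. The code was tested on simulated data. Python 3.11.15, NumPy 2.4.6 and pandas 2.3.3 were used.

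The genes, lists, floor and rules were chosen with earlier results of these data known. Every listed gene is named. From each further list up to 4 genes over 2-fold apart in each direction are named, with up to 2 others of the highest mean signal. From each marker list up to 3 detected genes or else the brightest are named. Pax5, Cd79a, S100a8, Sdc1, Prdm1, Jchain, Atf3, Cebpg and Copg1 were added after their values were seen. A planned look at protein C-termini was not made, as protein sequences were not used here. Alternatives were other floors, scalings, a pseudocount of 32, probe set filters, gene summaries and single arrays.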

Additional observations from a re-analysis of the deposited data

How the results depend on the processing

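The count of 32 genes above the floor was 29 with a 95th-percentile floor, 30 without _x_at probe sets, and 35 and 33 without replicate 1 and without replicate 2; for the further secretory genes they were 120 and 85 in the same order. With plain probe sets only, an alternative chosen after seeing the data, it was 21. The numbers of listed genes over 2-fold toward array 2 and toward array 1, 7 and 4 as reported, were 7 and 2 with the 95th-percentile floor, 4 and 5 with quantile normalization, 11 and 2 with median centring, 1 and 7 with the mean over all probe sets, 2 and 3 with the mean over those above the floor, 3 and 5 with the dimmest of those, and 0 and 5 with plain probe sets. Over all detected genes the larger share also lay toward array 2 with the 95th-percentile floor. It lay toward array 1 with both means and with the dimmest probe set above the floor. The direction of these shifts was thus not particular to the list. The median difference of the list, 0.13, ranged from -0.23 (plain probe sets) to 0.77 (median centring), so its sign is not settled. Of the 11 genes over 2-fold apart, 5 kept their direction under each alternative that gave them a value, namely Xbp1, Ddit3, Pdia4, Srp14 and Ddost. Of these, Ddit3, Pdia4 and Ddost have 1 probe set above the floor, so summaries over several such probe sets could not change them. With median centring Pdia4 (-0.96) and Ddost (-0.79) fell below 2-fold. Ddost was not detected without _x_at probe sets, and neither Ddost nor Ddit3 was detected with the 95th-percentile floor. Xbp1 fell below 2-fold with quantile normalization (0.87), with both means (0.19 for all probe sets, 0.36 for those above the floor) and with the dimmest probe set (0.57), and Srp14 without _x_at probe sets (0.48) and with either mean (0.91). With the dimmest probe set above the floor Atf4 turned to 0.66, Hsp90b1 to -0.39, Sec61a1 to -1.19 and Spcs1 to -0.24. With plain probe sets Spcs1 was -0.24 and Canx -0.81, and with quantile normalization Dad1 was -0.055. Depth does not apply to intensities; genes near the floor, such as Ddost, Ddit3 and Ssr2, have folds of uncertain size. No paired analysis was possible because there is 1 group.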
